A study of Mus musculus with 4 samples.

Results

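The collagen genes were taken as the protein-coding genes of GENCODE version M1 on chromosomes 1 to 19 whose symbol reads Col, a number, a and a second number. There are 41 such genes among 21418 protein-coding genes of these chromosomes, and they lie on 13 chromosomes. The rule reads symbols and positions, not tag counts. Col4a1 and Col4a2 share 1 promoter and were described apart, which leaves 39 genes in the counts of promoters unless stated otherwise. Col4a3 and Col4a4 also start next to each other and are read from almost the same tags, but both are counted among the 39.

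The study mapped acetylation of histone H3 at lysines 9 and 14 in mouse embryonic stem (mES) cells by chromatin immunoprecipitation followed by sequencing (ChIP-seq). It holds 4 libraries. H3K9ac was precipitated with the antibody ab4441, H3K14ac with 13HH3-1A5 (written 13HH3 from here on) and in a separate library with 7G8, and input DNA is the control. For all 4 the labels name the line E14, strain 129P2/OlaHsd, at passage 25 to 30 and without treatment, while the methods describe wild type cells derived from blastocysts, grown on feeder cells and then passaged without feeders on gelatin. Each antibody has 1 library and so has input. No difference between the libraries has a replicate check, no p-value is given, and the intervals cover counting error only.

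Collagens are secreted or membrane-bound proteins in which chains with glycine at regular intervals wind around each other into a rope-like helix. Fibrillar collagens carry the load in skin, tendon, bone and cartilage, type IV collagen forms the sheet-like network of basement membranes, and the other classes decorate fibrils, anchor epithelia or cross cell membranes. Basement membrane components are made early in the mammalian embryo, whereas most fibrillar collagens belong to differentiated connective tissue. Acetylation of H3K9 and H3K14 is a mark of accessible promoters and enhancers, and it is commonly found around the start sites of active genes.

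Acetylation was measured as the number of tags (mapped reads) within 2 kb of the transcription start site (TSS), scaled to 10000000 tags of each library and given as log2 of ChIP over input, with an exact 95% interval from the counts of tags. After removal of repeated tags the libraries held between 19313142 and 23837354 tags on chromosomes 1 to 19, X and Y. The 39 promoters held 20 to 233 tags of H3K9ac (median 98), 22 to 113 of 13HH3 (median 63), 20 to 111 of 7G8 (median 60) and 26 to 84 of input (median 48). A promoter was called enriched when it lay at least 2-fold over input with its interval above 0. The labelled cell type was compared with marker genes. For comparison, 56.0% of all genes were called in H3K9ac. Of 8 embryonic stem cell markers 7 were called (median log2 2.80, range 0.01 to 4.09), against 3 of 12 markers of feeder fibroblasts (median 0.31, range -0.76 to 1.47) and 5 of 8 gene records for 7 markers of extraembryonic endoderm (median 1.09, range -1.22 to 1.64). The part of endoderm-like or feeder cells in the values of the collagen genes was not tested, and a mark present in few cells and a weak mark in all cells cannot be told apart.

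As a group the collagen promoters carried less acetylation in mES cells than most genes. In H3K9ac 9 of the 39 were called enriched, against 56.0% of all genes, and their median was 0.60 (range -1.05 to 1.87) against 1.32 over all genes. Their interval lay above 0 in 20 (64.7% of all genes), and 35 of the 39 were below the median of all genes. The called genes were Col18a1, Col13a1, Col14a1, Col27a1, Col19a1, Col25a1, Col5a1, Col16a1 and Col1a1. In 13HH3 only Col19a1 was called, against 16.1% of all genes, with a median of 0.17 (range -0.61 to 1.21) against 0.36. In 7G8 no promoter of the 39 was called, against 16.5%, and the median was -0.09 (range -0.79 to 0.77) against 0.36. The median collagen promoter lay above 33.8% of all genes in H3K9ac, above 37.7% in 13HH3 and above 23.4% in 7G8.

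These levels depend on what a library is scaled to. When each ChIP library was scaled to input over 10 kb bins of low signal instead of over all tags, log2 values rose by 0.70 in H3K9ac, by 0.32 in 13HH3 and by 0.01 in 7G8 for every gene. The median over all genes then became 2.02, 0.69 and 0.37, and since every gene moves by the same amount, the collagen median stays 0.72, 0.19 and 0.45 below it by construction. With the bins over all chromosomes 28 of the 39 collagen promoters were called in H3K9ac and 6 in 13HH3, but so were 69.5% and 30.2% of all genes. The interval lay above 0 in 34 of the 39 in H3K9ac (75.1% of all genes), 19 in 13HH3 (51.8%) and 4 in 7G8 (33.0%). With the bins of each chromosome, a scaling chosen after seeing the data, the collagen median was 0.71, 0.12 and 0.32 below that of all genes. A narrower window also gave more calls. Within 1 kb of the TSS 18 collagen promoters were called in H3K9ac (61.1% of all genes), 4 in 13HH3 (25.6%) and 1, Col8a1, in 7G8 (24.3%).

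**Figure D1:**
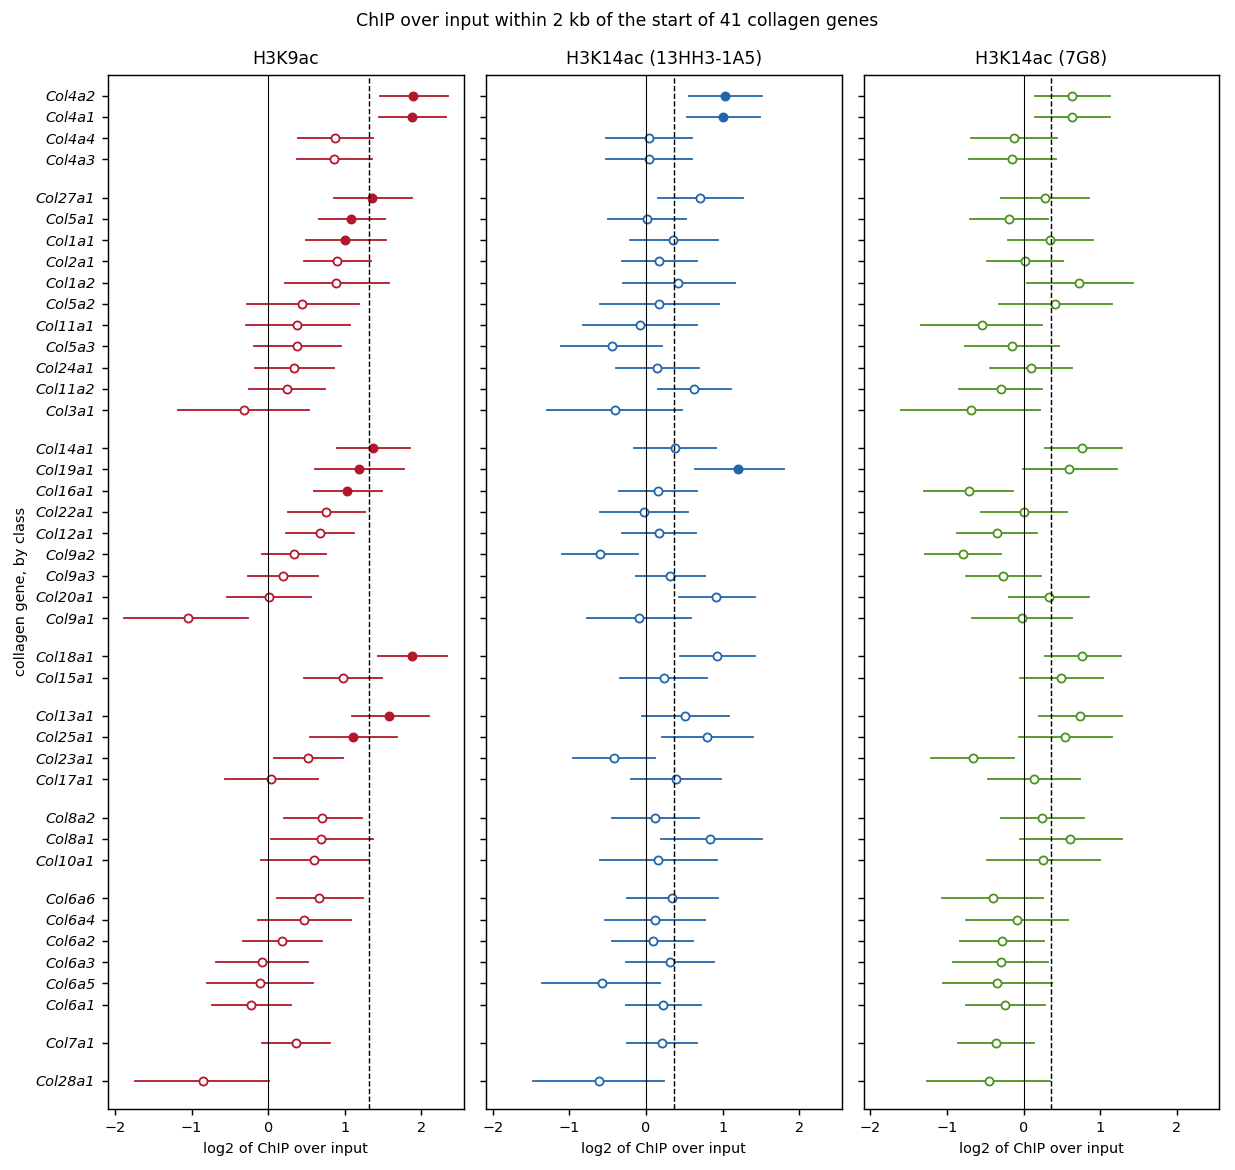
Log2 of ChIP over input (x axis) within 2 kb of the start of each of the 41 collagen genes (y axis, by class), in H3K9ac, 13HH3 and 7G8. Circles are the values, filled where called enriched, bars are exact 95% intervals from tag counts, the solid line is 0 and the dashed line is the median of all 21418 genes (1.32, 0.36 and 0.36). Col4a1, Col4a2 and Col18a1 lie highest in H3K9ac, and Col9a1 and Col28a1 lowest.

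Among the collagen genes H3K9ac was high at the shared promoter of Col4a1 and Col4a2, which encode the chains of the type IV collagen found in nearly all basement membranes. Col4a1 (chr8:11198423-11312826, minus strand) and Col4a2 (chr8:11312805-11449287, plus strand) run in opposite directions in mm9, and their annotated first exons of 311 and 310 bases overlap by 22 bases. Around the start of Col4a2 245 tags of H3K9ac, 126 of 13HH3, 105 of 7G8 and 55 of input were counted. These give a log2 of 1.89 (1.46 to 2.34) in H3K9ac, 1.03 (0.56 to 1.52) in 13HH3 and 0.63 (0.15 to 1.13) in 7G8. All 3 intervals lay above 0, and both H3K9ac and 13HH3 met the rule of 2-fold. The window around the start of Col4a1 holds nearly the same tags (246, 126, 107 and 56), so it is not a second measurement. Against all genes this promoter was above 66.0% in H3K9ac, 84.4% in 13HH3 and 65.7% in 7G8. It is CpG-rich by the rule given below. The CpG-rich promoters of all genes had medians of 1.99 in H3K9ac, 0.57 in 13HH3 and 0.58 in 7G8. Of these promoters 84.9% were called in H3K9ac, so its H3K9ac is not high for its promoter type.

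This promoter is shown because both genes start in it. The bases printed are 2 stretches of 30 bases of the plus strand in mm9, in the direction of Col4a2, the former at chr8:11312764-11312793 and the latter at chr8:11312801-11312830, which covers the overlap of the first exons. Capitals mark a CCAAT box, the site read by the factor NF-Y, and a GC box (GGGCGG), the site read by the Sp1 family.
Col4a1/Col4a2, CCAAT stretch: aggagctccCCAATttgttggcgctgcccc
Col4a1/Col4a2, GC box stretch: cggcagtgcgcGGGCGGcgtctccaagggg
In the direction of Col4a2 the CCAAT box begins 32 bases before its start. This box lies within the annotated first exon of Col4a1. The CCAAT found 145 bases before the start of Col4a1 is a different one. It reads against the direction of Col4a1 and so also lies on the plus strand. Within 1 kb of the start this promoter held 154 CpGs, the most of any member.

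The other divergent pair of type IV genes among the members, Col4a3 and Col4a4 (starts at 82583496 on the plus strand and 82583424 on the minus strand of chromosome 1), encodes chains of the kidney filter and the cochlea. Their starts are 72 bases apart. Around the start of Col4a3 there were 115 tags of H3K9ac, 61 of 13HH3, 59 of 7G8 and 53 of input, or a log2 of 0.85 (0.37 to 1.35), 0.04 (-0.52 to 0.60) and -0.15 (-0.71 to 0.41). Col4a4, read from almost the same tags, had 0.87, 0.04 and -0.12. Within 2 kb H3K9ac alone had an interval above 0 here. Within 1 kb the log2 of Col4a3 was 1.63 in H3K9ac and 0.73 (0.04 to 1.45) in 13HH3, and both intervals were above 0, while 7G8 was at 0.28 (-0.44 to 1.03). The H3K9ac log2 of Col4a2 within 1 kb was 2.18. In 250 bp bins the H3K9ac tags of Col4a3 were highest just before its start (35 tags, with 6 of input), whereas those of Col4a1/Col4a2 stayed between 18 and 27 tags per bin from 750 bp before to 1 kb after the start of Col4a2.

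**Figure D2:**
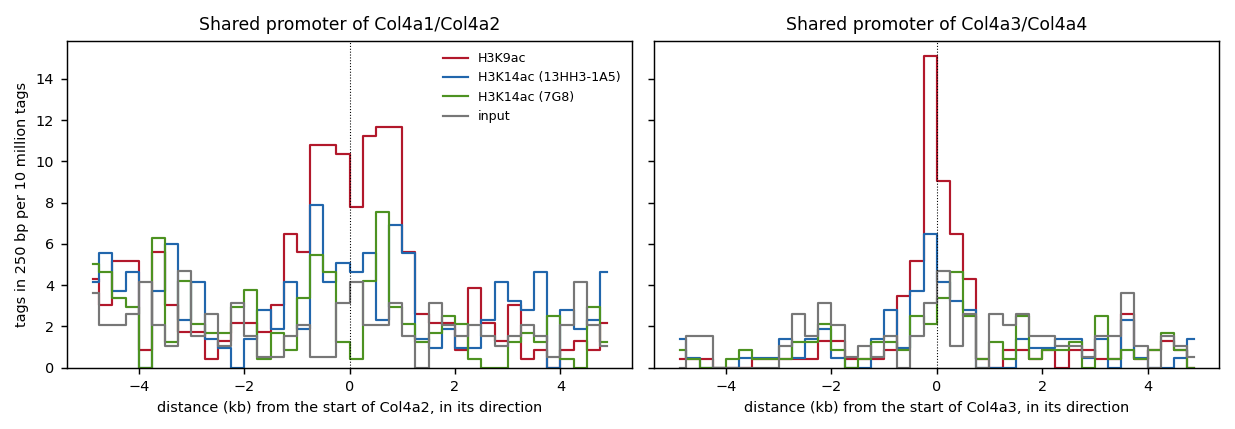
Tags per 10000000 tags of the library in bins of 250 bp (y axis) by distance from the start of Col4a2 and of Col4a3 in their own direction (x axis, kb), for H3K9ac, 13HH3, 7G8 and input. H3K9ac forms a plateau on both sides of the start of Col4a2 and a single narrow peak at that of Col4a3.

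Col18a1 and Col15a1 encode the multiplexins, heparan sulfate or chondroitin sulfate carrying collagens of basement membranes, and Col18a1 is the source of endostatin. Col18a1 (chr10:76514923-76629293, minus strand) held 233 tags of H3K9ac, 113 of 13HH3, 111 of 7G8 and 53 of input. Its log2 was 1.87 (1.44 to 2.33) in H3K9ac, 0.93 (0.45 to 1.43) in 13HH3 and 0.76 (0.28 to 1.26) in 7G8, the highest H3K9ac outside Col4a1/Col4a2 and within the interval of that promoter. All 3 libraries were above input, although 13HH3 and 7G8 missed 2-fold. Col15a1 reached 0.97 (0.47 to 1.49) in H3K9ac, just under 2-fold, with 0.23 in 13HH3 and 0.49 in 7G8.

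The 250 bases before the start of Col18a1 (mm9 chr10:76629294-76629543, minus strand) are shown as the promoter with the highest H3K9ac among the CpG-rich ones other than Col4a1/Col4a2, and those before Col9a3 (chr2:180332245-180332494, plus strand) as the lowest. Capitals mark CCAAT and GGGCGG on either strand, so that ATTGG and CCGCCC are matches on the other strand.
Col18a1, 250 bases before the start: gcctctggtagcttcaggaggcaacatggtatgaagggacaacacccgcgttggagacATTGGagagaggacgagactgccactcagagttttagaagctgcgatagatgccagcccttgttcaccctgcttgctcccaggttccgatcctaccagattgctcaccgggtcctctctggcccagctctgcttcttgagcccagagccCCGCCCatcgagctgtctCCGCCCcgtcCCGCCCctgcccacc
Col9a3, 250 bases before the start: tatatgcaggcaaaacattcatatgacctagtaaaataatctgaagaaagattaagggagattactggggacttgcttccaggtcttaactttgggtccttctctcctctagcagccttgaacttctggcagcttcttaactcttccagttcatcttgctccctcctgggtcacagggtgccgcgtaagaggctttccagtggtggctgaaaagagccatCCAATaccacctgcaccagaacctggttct
The stretch of Col18a1 holds 3 GC boxes, 11 CpGs and 60.8% G and C. The stretch of Col9a3 holds no GC box, 2 CpGs and 47.2% G and C, and its CCAAT begins 30 bases before the start. Col9a3 counts as CpG-rich through a window within 1 kb of its start, and on which side this window lies was not recorded. A further annotated coding start lies 432 bases downstream.

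Of the transmembrane collagens, Col13a1, found at cell junctions such as the neuromuscular synapse, held 158 tags of H3K9ac, 70 of 13HH3, 90 of 7G8 and 44 of input. Its log2 was 1.58 (1.09 to 2.10) in H3K9ac, 0.51 (-0.06 to 1.08) in 13HH3 and 0.73 (0.19 to 1.28) in 7G8. Col25a1, a neuronal collagen, held 98, 74, 68 and 38 tags and reached 1.10 (0.55 to 1.68), 0.80 (0.22 to 1.40) and 0.54 (-0.06 to 1.15). Both were called in H3K9ac alone within 2 kb. Within 1 kb Col25a1 also met the rule in 13HH3, at 1.29 (0.58 to 2.05). Col23a1 lay at 0.52 (0.08 to 0.97) in H3K9ac and below input in 7G8 (-0.66, -1.21 to -0.12). Col17a1, the hemidesmosome collagen of skin, was the lowest of the class in H3K9ac with 53, 63, 58 and 43 tags, at 0.04 (-0.57 to 0.65), 0.39 (-0.19 to 0.98) and 0.13 (-0.47 to 0.73), and none of its intervals was clear of 0.

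The 11 fibrillar genes had a median of 0.44 in H3K9ac, 0.17 in 13HH3 and 0.01 in 7G8 (1.32, 0.36 and 0.36 over all genes), and 3 of them were called in H3K9ac (56.0% of all genes). Col27a1, a fibrillar collagen of cartilage, was the highest in H3K9ac and 13HH3 with 138 tags of H3K9ac, 82 of 13HH3, 67 of 7G8 and 45 of input. Its log2 was 1.35 (0.86 to 1.87), 0.70 (0.16 to 1.26) and 0.27 (-0.30 to 0.85). Col5a1, whose product sets the diameter of collagen fibrils, held 163, 72, 69 and 64 tags and was enriched in H3K9ac only, at 1.09 (0.66 to 1.53), 0.01 (-0.50 to 0.52) and -0.20 (-0.71 to 0.32).

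Type I collagen, the main protein of bone and tendon, is built from the products of Col1a1 and Col1a2. Col1a1 held 111, 66, 72 and 46 tags and just met the rule in H3K9ac at 1.01 (0.50 to 1.54). Col1a2 held 62, 42, 57 and 28 tags and reached 0.88 (0.22 to 1.58). The intervals of these chains overlap over most of their length. Col2a1, the main collagen of cartilage, had 0.89 (0.46 to 1.34). Col3a1, a collagen of skin and vessels, was the lowest fibrillar gene in H3K9ac and 7G8 with 25, 22, 20 and 26 tags, at -0.32 (-1.17 to 0.53), -0.40 (-1.29 to 0.47) and -0.68 (-1.60 to 0.22). It lay above only 16.0% of all genes in H3K9ac, and its low number of tags leaves a wide interval.

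The FACIT genes encode short or interrupted collagens that sit on the surface of fibrils. They spanned nearly the whole range, from -1.05 to 1.37 in H3K9ac over 9 genes, with a median of 0.67. Col14a1, which binds fibrils of type I collagen, held 158 tags of H3K9ac, 74 of 13HH3, 107 of 7G8 and 51 of input. It reached 1.37 (0.90 to 1.85) in H3K9ac and, at 0.77 (0.27 to 1.28), the highest value of the 39 in 7G8, while 13HH3 was at 0.37 (-0.16 to 0.92).

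Col19a1, described in muscle and synapses, held 98, 93, 67 and 36 tags. It was the member called in 13HH3, at 1.21 (0.64 to 1.80), which is above 89.4% of all genes, with 1.18 (0.62 to 1.77) in H3K9ac and 0.59 (-0.01 to 1.22) in 7G8. In Col20a1 13HH3 exceeded H3K9ac. It held 64 tags of H3K9ac, 112 of 13HH3, 82 of 7G8 and 53 of input, so that 13HH3 stood at 0.92 (0.43 to 1.42) and H3K9ac at 0.01 (-0.54 to 0.56). Within 1 kb of its start 13HH3 was at 1.06 and met the rule. In Col16a1 H3K9ac was the highest of the ChIP libraries, with 150, 76, 46 and 61 tags, or 1.03 (0.60 to 1.49) in H3K9ac, 0.15 (-0.35 to 0.66) in 13HH3 and -0.71 (-1.30 to -0.13) in 7G8.

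The 3 genes of type IX collagen of cartilage had no called promoter in any library, against 56.0%, 16.1% and 16.5% of all genes, and 3 genes are too few to set apart from these shares. Col9a1 held 22 tags of H3K9ac, 40 of 13HH3, 46 of 7G8 and 38 of input, and was the 1 promoter of the 39 whose H3K9ac interval lay below 0, at -1.05 (-1.88 to -0.26), against 6.98% of all genes. In 13HH3 and 7G8 it was at -0.09 and -0.03. With scaling to bins of low signal its H3K9ac became -0.35 (-1.18 to 0.44), no longer below 0. Col9a2 held 127, 62, 60 and 84 tags, at 0.33 (-0.08 to 0.75) in H3K9ac, and was below input in 13HH3 at -0.60 (-1.10 to -0.11) and in 7G8 at -0.79 (-1.29 to -0.29). With the bins of low signal its 13HH3 became -0.28 (-0.77 to 0.21), and 7G8 stayed below 0. Col9a3, whose sequence is printed above, held 100, 102, 75 and 73 tags, at 0.19 (-0.26 to 0.65), 0.32 (-0.13 to 0.77) and -0.26 (-0.75 to 0.22). Its H3K9ac was uneven around the start, with 27 tags in the 2 kb before it (33 of input) and 73 in the 2 kb after it (40 of input).

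The short-chain collagens form networks in the cornea and in hypertrophic cartilage. Col8a2 (98, 61, 73 and 50 tags) and Col10a1 (51, 35, 41 and 28 tags) had 0.71 (0.20 to 1.23) and 0.60 (-0.09 to 1.32) in H3K9ac. Col8a1 held 60, 62, 58 and 31 tags and had similar values in all ChIP libraries, at 0.69 (0.04 to 1.36), 0.84 (0.19 to 1.51) and 0.60 (-0.05 to 1.28). With scaling to bins of low signal the values of Col8a1 became 1.39, 1.16 and 0.61, so the likeness depends on the scaling. The 6 genes of type VI collagen, which builds beaded filaments around cells, had a median of 0.05 in H3K9ac (1.32 over all genes). None was called in H3K9ac (56.0% of all genes), and with 6 genes a count of 0 in 13HH3 and 7G8 is near the 16.1% and 16.5% of all genes. None of the 6 promoters is CpG-rich. Promoters of all genes that are not CpG-rich had a H3K9ac median of -0.05 with 15.6% called, and type VI lies near these values. Col6a6 was the highest at 0.67 (0.12 to 1.24) with 82, 61, 40 and 43 tags. Col6a1 was the lowest at -0.22 (-0.73 to 0.30) with 67, 85, 68 and 65 tags, and Col6a5 had -0.11 (-0.80 to 0.58) with 40, 27, 35 and 36 tags. Col7a1, the anchoring fibril of the skin, had 0.36 (-0.08 to 0.81) with 111, 93, 69 and 72 tags. Col28a1 (20, 22, 27 and 30 tags) had -0.85 (-1.74 to 0.02) in H3K9ac, -0.61 (-1.47 to 0.23) in 13HH3 and -0.46 (-1.26 to 0.34) in 7G8, so all ChIP libraries were under input without an interval clear of 0.

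The 2 antibodies against H3K14ac gave lower values than H3K9ac at most collagen promoters. The log2 of 13HH3 over H3K9ac had a median of -0.46 over the 39 (-0.92 over all genes), and its interval lay below 0 in 17 of them, against 61.2% of all genes. It lay above 0 in Col20a1 (0.91) and Col9a1 (0.96), against 5.29% of all genes. With scaling to bins of low signal it lay below 0 in 26 (68.9%) and above 0 in Col20a1 alone (0.53, 0.08 to 1.00), while Col9a1 had 0.59 (-0.20 to 1.41). The 13HH3 interval over input was above 0 in 7 promoters (Col19a1, Col18a1, Col20a1, Col8a1, Col25a1, Col27a1 and Col11a2; 33.3% of all genes). That of 7G8 was above 0 in 4 (Col14a1, Col18a1, Col13a1 and Col1a2; 32.6% of all genes) and below 0 in 3 (Col16a1, Col23a1 and Col9a2; 4.77% of all genes). The 13HH3 interval lay below 0 in 1 promoter, that of Col9a2 (4.44% of all genes). Col18a1 was above input in both H3K14ac libraries, and Col9a2 below it in both. Between the H3K14ac antibodies 13HH3 exceeded 7G8 with the interval above 0 in 9 promoters (10.8% of all genes), most at Col11a2 (0.93, 0.46 to 1.42) and Col16a1 (0.86, 0.32 to 1.43), and was below it in none of the 39 (8.26% of all genes). With the bins of low signal 19 were above (30.0% of all genes). Across the 39 promoters, which share the input library in their ratios, Spearman's rho was 0.44 between H3K9ac and 13HH3, 0.57 between H3K9ac and 7G8 and 0.66 between 13HH3 and 7G8. Over all genes it was 0.72, 0.77 and 0.74, and over the 6306 to 6323 genes without a peak, whose ratios share input in the same way, 0.50, 0.35 and 0.48.

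Peaks, called in windows of 400 bp against a local Poisson rate at 1e-05, were counted when they came within 2 kb of a TSS. H3K9ac peaks were found at 24 of the 39 promoters (66.2% of all genes), 13HH3 peaks at 7 (29.1%) and 7G8 peaks at 6 (26.0%). Peaks of all 3 libraries met at Col27a1, Col19a1, Col25a1 and Col8a1 (15.3% of all genes). H3K9ac peaks alone were found at 16 promoters (28.5%), and no peak at all at 14 (31.9%). Col20a1 was the only member with an H3K14ac peak and no H3K9ac peak (1.93% of all genes). At Col4a1/Col4a2 peaks of H3K9ac and 13HH3 were called and none of 7G8.

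H3K9ac of the collagen genes lay mostly after the start. Summed over the 39 genes, H3K9ac over input was 2.86 in the first 250 bp after the TSS and 2.04 in the last 250 bp before it, where all genes had 4.15 and 3.59. For 13HH3 the first bin after the TSS had 1.86 (all genes 1.72), while the next bin had 1.32 (1.83) and the last bin before the TSS 1.39 (1.41). For 7G8 the first bin after the TSS had 1.16 (1.32). The side after the start had more H3K9ac over input than the side before it in 30 of the 39 genes, against 60.2% of all genes. Col13a1 had 115 tags after and 43 before (26 and 17 of input), and Col19a1 had 84 after and 14 before (21 and 15 of input). Col14a1 was an exception, at 1.02 after and 2.02 before the start. For 13HH3 the side after was higher in 20 of 39 (61.4% of all genes) and for 7G8 in 22 of 39 (51.8%).

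**Figure D3:**
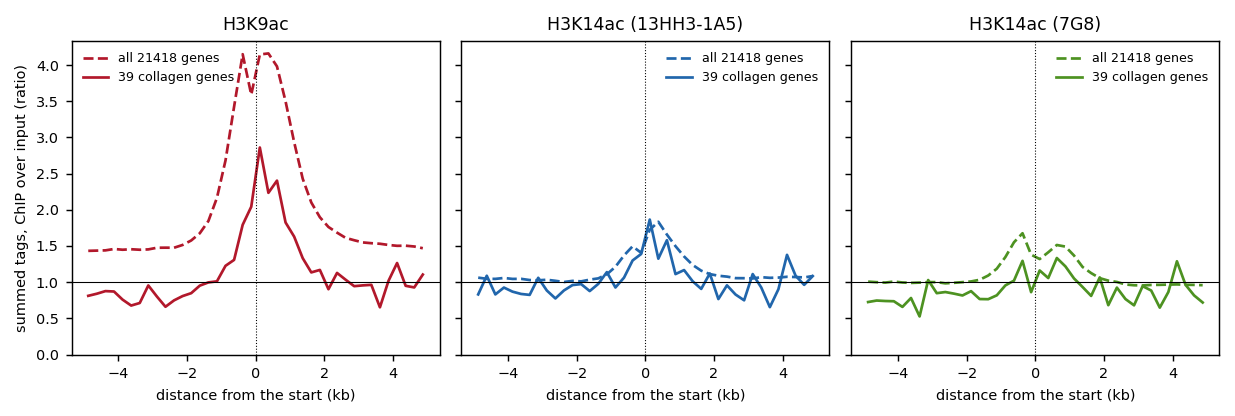
Summed ChIP tags over summed input tags (y axis, ratio) in bins of 250 bp by distance from the TSS (x axis, kb) for the 39 collagen genes (solid) and all 21418 genes (dashed), in each ChIP library. Values of the collagen genes in H3K9ac stay under those of all genes throughout and rise to 2.86 just after the TSS.

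CpG content went along with H3K9ac at collagen promoters. A promoter was called CpG-rich where a window of 500 bp within 1 kb of the TSS had at least 50% G and C and at least 0.6 of the CpGs expected from its bases. That held for 17 of the 39. They had a median of 0.89 in H3K9ac and 7 were called, against a median of 1.99 and 84.9% of the CpG-rich promoters of all genes. The other 22 had a median of 0.37 with 2 called, Col16a1 and Col1a1, against -0.05 and 15.6% of such promoters of all genes. The collagen median was thus under that of all genes among CpG-rich promoters and above it among the others. Among these others the calls went the other way, with 9.09% called against 15.6%. Their single values ranged from -1.05 to 1.03, and a difference between the CpG classes was not tested. In 13HH3 1 of the 17 was called (24.1% of the CpG-rich promoters of all genes) and 0 of the 22 (4.91% of the others), and in 7G8 0 of the 17 (25.1%) and 0 of the 22 (4.47%). Across the 39, H3K9ac and the count of CpGs had a Spearman's rho of 0.68 (0.71 across all genes), and with 13HH3 and 7G8 it was 0.24 and 0.18 (0.48 and 0.36). The number of CpGs also went along with the number of input tags (rho 0.42 across the 39 and 0.19 across all genes), and the part of base composition in recovery was not tested.

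**Figure D4:**
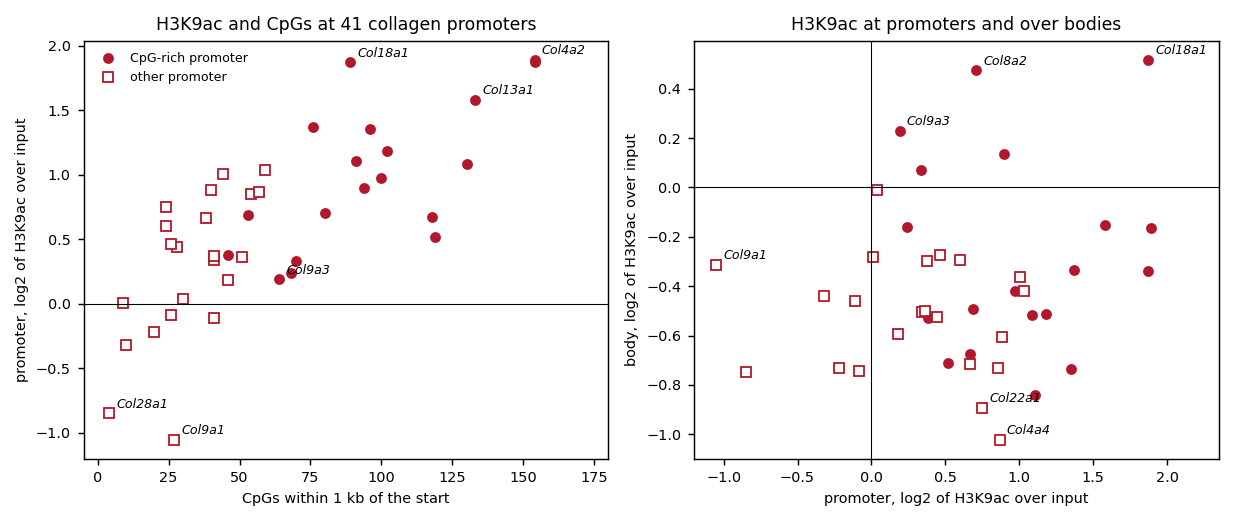
Left, log2 of H3K9ac over input within 2 kb of the start (y axis) by the number of CpGs within 1 kb of it (x axis). Right, log2 of H3K9ac over input over the gene body (y axis) by that at the promoter (x axis). Each point is 1 of the 41 collagen genes, filled where the promoter is CpG-rich. Promoters with more CpGs lie higher, and most bodies lie under 0, with Col18a1, Col8a2 and Col9a3 highest.

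Letters of known promoter elements were counted on both strands from 250 bases before to 50 bases after each annotated start. GGGCGG was found in 22 of the 41 promoters (43.7% of all genes), CCAAT in 17 (37.6%) and TATAAA in 6 (13.5%). Both GGGCGG and CCAAT were found in 12 (16.3% of all genes). In these counts Col4a1 and Col4a2 enter separately although they share a promoter, and each holds both GGGCGG and CCAAT. Of the 22 promoters that are not CpG-rich, 9 held GGGCGG, where 11.6% of such promoters of all genes did. Of the 19 CpG-rich ones 13 did (66.8%). Col1a1 held a GC box 178 bases before its start, CCAAT on the other strand at 99 and 73 bases before it, and a TATAAA that begins at the annotated start itself. Col14a1 held 3 GC boxes and, on the other strand, a TATAAA 29 bases and a CCAAT 23 bases before its start. Col3a1, with little acetylation, held a TATAAA at 117 bases before its annotated start and neither of the others. These are matches of letters, and binding was not measured.

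The bodies of collagen genes, counted from 2 kb after the start to the end of the gene, held fewer acetylated tags than input when scaled to all tags. All 41 bodies were at least 2 kb long, from 5.11 to 417 kb with a median of 105 kb (22.0 kb over the 16622 genes with such a body). The median log2 over input was -0.46 in H3K9ac, -0.14 in 13HH3 and -0.27 in 7G8, against 0.28, 0.03 and -0.10 over all genes. The interval lay below 0 in 33 of 41 in H3K9ac (21.7% of all genes), in 22 in 13HH3 (21.1%) and in 28 in 7G8 (32.7%). No body was called enriched in H3K9ac (15.4% of all genes), 13HH3 (1.41%) or 7G8 (0.710%). With scaling to bins of low signal the H3K9ac and 13HH3 medians changed sign, to 0.24 and 0.19, while those of all genes were 0.98 and 0.35, so the sign of these medians depends on the scaling. The interval then lay below 0 in 3 bodies in H3K9ac (2.80% of all genes) and 2 in 13HH3 (5.64%), and above 0 in 26 in each (80.5% and 54.3%). Among bodies of at least 50 kb the 25 collagen genes had -0.52 in H3K9ac and all such genes 0.04. Among genes with a called H3K9ac promoter the 11 collagen genes had -0.36 and all genes 0.53.

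The lowest body was that of Col4a4, with 667 tags of H3K9ac, 1006 of 13HH3, 1149 of 7G8 and 1128 of input over 134 kb. Its log2 was -1.02 (-1.16 to -0.88) in H3K9ac, -0.33 in 13HH3 and -0.28 in 7G8. Col22a1 held 1695, 2663, 3127 and 2621 tags over 236 kb, at -0.89 (-0.98 to -0.80), -0.14 and -0.05. Col25a1 held 2322, 2967, 3699 and 3461 tags over 417 kb, at -0.84 (-0.92 to -0.76), -0.39 and -0.21. With scaling to bins of low signal H3K9ac of these genes became -0.32, -0.19 and -0.14, with each interval still below 0, and 7G8 became -0.27, -0.04 and -0.20. H3K9ac was the lowest library of all 3 genes with scaling to all tags, and for Col25a1 7G8 was the lowest with the bins. The interval was above 0 in 3 bodies in H3K9ac (49.9% of all genes). Col18a1 had 2809 tags of H3K9ac, 2286 of 13HH3, 1798 of 7G8 and 1635 of input over 112 kb, or 0.52 (0.43 to 0.61), 0.32 (0.23 to 0.41) and -0.17 (-0.26 to -0.07). Col8a2 had 0.48 (0.28 to 0.67) with 589, 385, 333 and 353 tags. Col9a3 had 0.23 (0.02 to 0.44) with 453, 461, 363 and 322 tags.

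In 13HH3 the interval was above 0 in 7 bodies (27.5% of all genes), those of Col4a1, Col4a2, Col9a3, Col14a1, Col15a1, Col17a1 and Col18a1. In 4 of these, Col4a1, Col4a2, Col14a1 and Col15a1, the H3K9ac interval lay below 0. Of all genes 21.7% had a body with the H3K9ac interval below 0, and the share with both was not counted. Over the body of Col4a2 there were 1908 tags of H3K9ac, 2488 of 13HH3, 1875 of 7G8 and 1783 of input, so that 13HH3 was at 0.32 (0.23 to 0.41) and H3K9ac at -0.17 (-0.26 to -0.07). Over that of Col4a1 13HH3 was at 0.15 (0.05 to 0.25) and H3K9ac at -0.34 (-0.45 to -0.23). Col15a1 had 0.27 (0.16 to 0.39) in 13HH3 and -0.42 (-0.54 to -0.29) in H3K9ac, and Col14a1 had 0.14 (0.05 to 0.24) and -0.33 (-0.43 to -0.23). With scaling to bins of low signal H3K9ac was above 0 in all 4, at 0.53 in Col4a2, 0.36 in Col4a1, 0.28 in Col15a1 and 0.37 in Col14a1, and the log2 of 13HH3 over H3K9ac became 0.11 (0.02 to 0.20) in Col4a2, 0.11 in Col4a1, 0.32 in Col15a1 and 0.10 in Col14a1. In 7G8 Col4a1 and Col4a2 were at -0.23, and the 7G8 interval was above 0 over the bodies of Col11a1, Col14a1 and Col9a1 (17.7% of all genes). Along the bodies the medians were even, at -0.48, -0.46 and -0.48 in the first, middle and last of 3 equal parts in H3K9ac, where all genes fell from 0.39 to 0.13. The promoter was above the body of the same gene in 38 of 41 genes in H3K9ac (85.6% of all genes), by a median of 0.97. It was above it in 33 in 13HH3 (74.4% of all genes, median 0.35) and in 31 in 7G8 (78.5%, median 0.28). Col28a1, Col9a1 and Col9a3 were the 3 with less H3K9ac at the promoter than over the body.

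Within the bodies 50 peaks of H3K9ac were found in 21 of the 41 genes (59.5% of all genes had one), 59 of 13HH3 in 25 genes (38.6%) and 9 of 7G8 in 8 genes (25.5%). Per 100 kb of body this is 1.10 peaks of H3K9ac, 1.29 of 13HH3 and 0.20 of 7G8, against 4.20, 2.74 and 1.05 over all genes. The numbers depend on the peak threshold. At 1e-10, an alternative added after seeing the data, the collagen bodies held 18, 4 and 0 peaks and those of all genes 13590, 2962 and 714, and with repeated tags kept the collagen bodies held 72 peaks of 13HH3 and those of all genes 30632, against 25482 without them. Of the 59 peaks of 13HH3, 12 (20.3%) were overlapped by a peak of H3K9ac and 2 (3.39%) by a peak of 7G8, against 40.0% and 15.8% of the 25482 over all genes, whose bodies hold more peaks of both libraries per 100 kb (above). Of the 50 peaks of H3K9ac, 12 (24.0%) were overlapped by a peak of 13HH3, against 24.7% of the 39055 over all genes. A peak of 7G8 overlapped 2 of these 50, against 14.1% over all genes. For 13HH3 and H3K9ac the difference from all genes thus depends on which library's peaks are counted. There were 42 peaks of H3K9ac with their centre more than 2 kb from every annotated start, and 54 such peaks of 13HH3. Of these, 31 and 46 had their centre in introns, and the share of body bases in introns was not counted. In the bodies of Col4a1 and Col4a2 there were 11 peaks of 13HH3, 4 of H3K9ac and 1 of 7G8.

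The peaks centred away from starts with the most tags over scaled input were of H3K9ac, and their centres lay in introns. The first was in Col18a1 at chr10:76592951-76595750, 34942 bp after the start, with 173 tags of H3K9ac, 90 of 13HH3, 77 of 7G8 and 37 of input, a log2 of 1.96 (1.44 to 2.52) in H3K9ac and 1.12 in 13HH3. The next were in Col2a1 (chr15:97822451-97824300, 129 tags of H3K9ac and 30 of input, 1.84), Col13a1 (chr10:61390951-61392450, 112 and 24, 1.96) and Col6a5 (chr9:105786501-105787750, 100 and 27, 1.63). The last of the 5 was in Col17a1 (chr19:47742801-47744200, 71 and 10, 2.56). The edges of the peaks in Col2a1 and Col17a1 come within 2 kb of further annotated starts, at 97820907 and 47745538. In Col6a5 and Col17a1 the promoter itself had no H3K9ac peak. A peak of 13HH3 in an intron of Col5a1 (chr2:27750851-27751900) was overlapped by peaks of both other libraries, with 65 tags of 13HH3, 59 of H3K9ac, 46 of 7G8 and 15 of input.

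Col18a1 held 12 of the 50 H3K9ac peaks and 10 of the 59 13HH3 peaks, the most of any member in both libraries, and no 7G8 peak. Its annotation has further coding starts at 52872 and 77120 bp after the first. Around the former there were 119 tags of H3K9ac, 121 of 13HH3, 68 of 7G8 and 52 of input, so 13HH3 reached 1.06 (0.57 to 1.55) and H3K9ac 0.93 (0.45 to 1.43). Around the latter the values were 0.65 (0.16 to 1.16) in H3K9ac and 0.84 (0.35 to 1.34) in 13HH3. In all, 83 further starts of 35 members lay more than 2 kb from the first one, with a median of -0.51 in H3K9ac, -0.16 in 13HH3 and -0.34 in 7G8. Besides coding transcripts they include retained introns, processed transcripts and transcripts subject to nonsense-mediated decay. The types were not counted apart, here or over all genes, so these are not values of coding starts alone. Over the 17259 such starts of all genes the medians were 0.41, 0.05 and -0.14. None of the 83 was called in H3K9ac (24.9% of those of all genes) or 7G8 (4.18%), and the start of Col18a1 at 52872 bp was the 1 called in 13HH3 (6.61%).

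**Figure D5:**
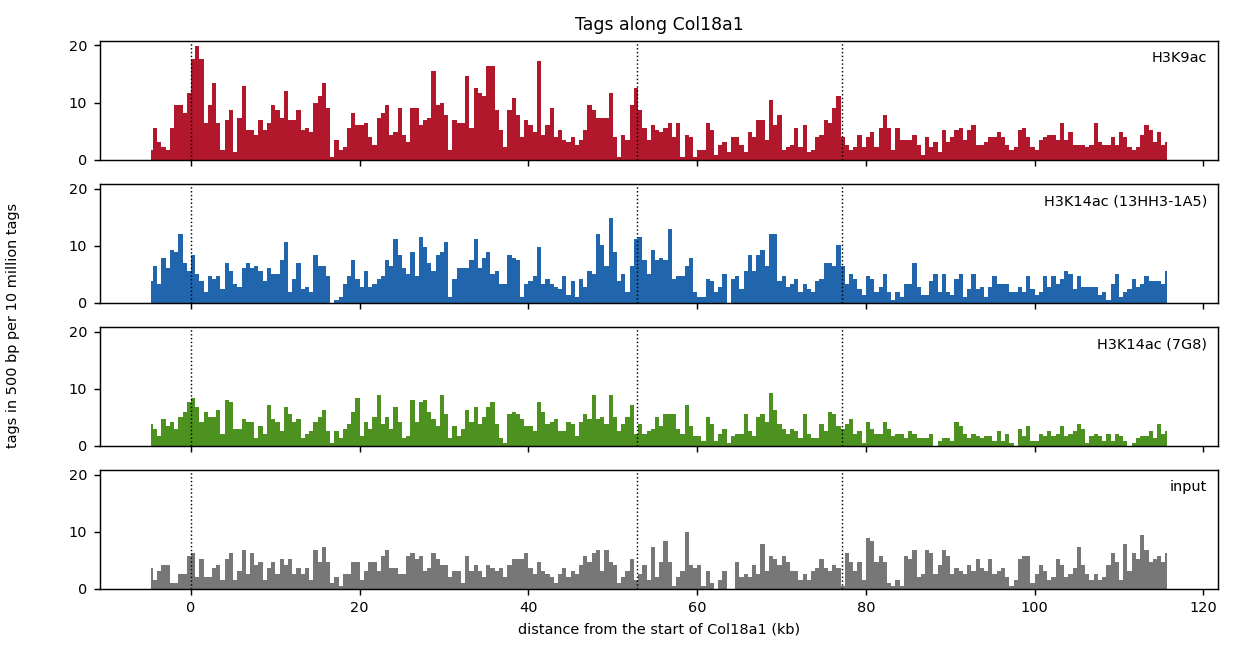
Tags per 10000000 tags of the library in bins of 500 bp (y axis) along Col18a1 by distance from its first start (x axis, kb), for H3K9ac, 13HH3, 7G8 and input. Dotted lines mark the annotated coding starts at 0, 52872 and 77120 bp. H3K9ac is highest just after the first start, and it is raised again in several places over the following 50 kb.

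The lists of genes whose products modify and cut collagens or form basement membranes with them had higher H3K9ac medians than the collagen genes (0.60), and the list of receptors had a lower one. CpG-rich promoters made up 15 of 18, 12 of 13, 12 of 16 and 3 of 9 genes in the lists below in the order modifying, cutting, basement membrane and receptors, against 17 of the 39 collagen promoters, and the part of this in the medians was not tested. Of 18 measured genes for hydroxylases and chaperones 14 were called in H3K9ac (56.0% of all genes), with a median of 1.59. Their range ran from 0.71 at Glt25d2, a collagen galactosyltransferase, to 3.56 at Sec23a, a coat protein of the vesicles that export collagen. Of 13 genes for processing and crosslinking 10 were called with a median of 1.45, from -0.32 at Tll2, a procollagen protease, to 2.07 at Pcolce2, a procollagen protease enhancer. Of 9 receptor genes 2 were called with a median of 0.45, the lowest being Lair1 of immune cells (-0.50) and the highest Itgb1, the beta chain of the collagen-binding integrins (2.59). Of 16 partners in the basement membrane 11 were called with a median of 1.14, from 0.41 at Lama1, a laminin chain of the early embryo, to 2.55 at Nid2, a nidogen that links laminin to type IV collagen. Among the 11, the call of Nid1 rests on 20 tags of H3K9ac and 4 of input (interval 0.48 to 4.07). In 13HH3 2 hydroxylases and chaperones, 1 gene of processing and crosslinking, 1 receptor and 2 basement membrane partners were called (16.1% of all genes). In 7G8 the calls in these lists were 2 hydroxylases and chaperones, 1 gene of processing and crosslinking, 1 receptor and 0 basement membrane partners (16.5%).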

How the data were processed

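ChIP DNA and input were sequenced as single-end reads, which the authors aligned to mm9 with ELAND. The deposited values are the positions of mapped reads, 1 per line, and carry no normalization. The number of tags, between 19313142 and 23837354, sets the precision that the intervals give, for counting error only. Groups follow the labels, and the alternatives tried are given with their effect in the closing part. The deposited score column is the same on every line and was not used. 3.30% of the 13HH3 tags repeated a position and strand and were counted once, and the other files hold no repeats. Tag ends were moved by 100 bp. Genes were those of GENCODE M1 on NCBIM37, which is mm9. Intervals are Clopper-Pearson limits of the share of ChIP tags among ChIP and input tags. MACS was not run here, and the peak caller written for these data takes the highest of the genome rate and input in 1, 5 and 10 kb. Intervals, calls and the peak caller were tested on simulated data. The simulated counts followed the Poisson model that the intervals assume. Simulated peaks were strong and lay on an even background, so the peak caller was not tested on uneven input. Named members are the 10 highest and 5 lowest in H3K9ac, the 3 highest in each H3K14ac library, the highest and lowest of each class and pathway list, the 3 highest and 3 lowest bodies, and type IV. Col1a2, Col2a1, Col8a1, Col9a2, Col11a2, Col23a1 and others that make up a printed count were named after their values were seen. The members and lists were chosen with earlier results of these data known. Calculations used pandas 2.3.3, scipy 1.17.1 and numpy 2.4.6 under Python 3.11.15, and plots matplotlib 3.10.9.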

Additional observations from a re-analysis of the deposited data

How the results depend on the processing

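No paired analysis was possible because each antibody has 1 library. Of 157 alternative values, 122 stayed within their limits, 31 moved and 4 reversed. The alternatives were a window of 1 kb, scaling to bins of low signal, tag ends not moved, repeats kept, an added tag, thinning, another TSS, other sets of members, other thresholds and other limits of the body. Bins of low signal were picked for low ChIP counts, which by construction lowers their ChIP to input ratio, and scaling by chromosome was chosen after seeing the data. In the order of scaling over all chromosomes and then by chromosome, calls were 28 and 28 in H3K9ac (69.5% and 69.6% of all genes) and 6 and 6 in 13HH3 (30.2% and 30.0%). Promoter medians became 1.30 and 1.30 in H3K9ac and 0.49 and 0.57 in 13HH3, the shared promoter of Col4a1/Col4a2 2.59 and 2.43 in H3K9ac, the median of 13HH3 over H3K9ac -0.83 and -0.82 and that of 13HH3 over 7G8 0.52 and 0.51. Body medians reversed to 0.24 and 0.24 in H3K9ac and 0.19 and 0.23 in 13HH3. Within 1 kb the calls were 18 in H3K9ac, 4 in 13HH3 and 1 in 7G8 (61.1%, 25.6% and 24.3%), and the 13HH3 median was 0.36. At 1.5-fold they were 19, 7 and 4 (63.6%, 31.8% and 31.7% of all genes), and with the interval above 0 alone 20, 7 and 4 (64.7%, 33.3% and 32.6%). In 13HH3 the call of 1 promoter became 2 with the TSS of the longest coding transcript (16.1% of all genes), 2 with repeats kept (17.1%) and 3 over all 41 members (16.1%). Promoter peaks of 13HH3 were 1 at 1e-10 (8.73% of all genes), 4 with the centre within 1 kb (25.2%) and 11 with repeats kept (33.5%), and those of 7G8 were 0 at 1e-10 (6.31%). Where no construction is named above, the cause was not tested. At this depth a promoter such as that of Col4a3, with 53 input tags, has an interval of -0.52 to 0.60 around its 13HH3 value of 0.04, and smaller differences were not detectable.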

Other observations

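Some relatives lie outside the rule that chose the genes. Col4a5 and Col4a6 encode the remaining chains of type IV collagen and start head to head on the X chromosome, at 137909928 on the plus strand and 137908619 on the minus strand. Around Col4a5 there were 55 tags of H3K9ac, 18 of 13HH3, 32 of 7G8 and 26 of input, a log2 of 0.82 (0.12 to 1.55) in H3K9ac. Around Col4a6 there were 56, 16, 30 and 18, and H3K9ac reached 1.37 (0.59 to 2.23). The windows share part of their tags. In 13HH3 they had -0.69 (-1.65 to 0.23) and -0.33 (-1.40 to 0.72). Emid2, listed today as Col26a1, had 119, 64, 58 and 51 tags and 0.96 (0.47 to 1.46) in H3K9ac, with 0.16 in 13HH3 and -0.12 in 7G8.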
